A study of Homo sapiens with 5 samples.

Results

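RNA recovered with the protein HNRNPC from MDA-MB-231 cells was compared with RNA of whole cells of the same line in 3 cell libraries. MDA-MB-231 is an established line from a human breast cancer of the triple-negative kind, with the look and markers of mesenchymal cells. The immunoprecipitate library (RIP-HNRNPC) comes from RNA immunoprecipitation, in which a lysate is incubated with magnetic beads that carry an antibody to HNRNPC and the RNA that stays on the beads is sequenced. The cell libraries are si-LY6E-DT, where a Smart Silencer against LY6E-DT, a long noncoding RNA, was transfected; the library labelled si-HNRNPC, from cells described as an HNRNPC knockdown; and si-LY6E-NC, the negative control. The input of the immunoprecipitation (RIP-INPUT) was kept out of the choice of genes and is given beside it. Each group had 1 library, so no difference has a replicate check, and no error or p-value is given. All groups are the same line grown in the same medium with serum; no time after transfection is given, and no silencing is stated for the lysate of the immunoprecipitation. The labels mention IgG beads; no IgG library was analysed here, so RNA that stays on the beads without HNRNPC was not measured. In the treatment text the 2 targets and the 2 silencers are crossed, and the titles of the libraries are followed here.

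The 5 files together list 12497 genes, of which 10731 are listed in all 4 libraries compared, and 10323 of these averaged at least 1 FPKM (fragments per kilobase of transcript, scaled to the library's total) over the 4. For these 10323 genes, the difference is log2(FPKM + 1) in the immunoprecipitate minus the mean of log2(FPKM + 1) over the 3 cell libraries. A gene was called enriched, or depleted, when it was at least 2-fold above, or below, each of the 3 cell libraries on that scale, which understates the change of low genes. By this rule of size 1453 genes were enriched, 14.1% of those compared, and 3096 were depleted, 30% of those compared.

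HNRNPC is an abundant nuclear RNA-binding protein that coats nascent transcripts and binds runs of U. In the nucleus it is known for keeping the splicing factor U2AF2 away from U-rich sequence, including Alu elements in antisense orientation within introns, and for sorting RNAs for export by their length. Runs of U are also frequent in the 3′ untranslated regions (3′ UTRs) of mRNAs. Most histone genes that are used during DNA replication make mRNAs without a poly(A) tail, which end in a conserved hairpin instead.

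The sequences below show runs of U in 4 of the leading enriched genes, none of them a histone gene, and, for contrast, the letters of 2 of the leading depleted genes. Each is a stretch of 30 bases of the 3′ UTR, given 5′ to 3′ as in the mRNA with T for U, from GENCODE 29 transcripts on GRCh38. In the 4 enriched genes the stretch holds the longest run of T, and capitals mark bases in runs of at least 5 T; a run may continue past the stretch, as the last 4 letters of SLC16A6 do. In the 2 depleted genes, whose 3′ UTRs hold no run of 5 T, it is the stretch with the most T.
SLC16A6: tgttttaagcTTTTTTTTTTTgcttgTTTT
OCLN: tgtgtaTTTTTTTTTTTTTTTTTTTgagat
ZNF460: ttagcgaaatagTTTTTTaatataaccact
TMEM170B: tgcccagcctaTTTTTTTTTaacttcaaat
POLR2L: tctttgaggttccctccttctgggtgttct
SFN: gtgtgtgtgtgtgtgtgtgtgtgtgtgtgt
The stretch of SLC16A6 lies at chr17:68268893-68268922 on the minus strand, that of OCLN at chr5:69555256-69555285 on the plus strand, that of ZNF460 at chr19:57292284-57292313 on the plus strand and that of TMEM170B at chr6:11580304-11580333 on the plus strand. Those of POLR2L and SFN lie at chr11:840003-840032 on the minus strand and chr1:26864331-26864360 on the plus strand. The longest run is 19 bases in OCLN and 6 bases in ZNF460, and the SFN stretch alternates G and T without a run.

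Enriched histone genes are shown apart, by examples that hold the hairpin described above. It was searched on the sense strand as a stem GGNNCT, a loop TTNN and the reverse complement of that stem, and capitals mark it here.
HIST1H2AI: aaccaaaGGCTCTTTTCAGAGCCacctaca
HIST1H4J: caataaaaGGCCCTTTTCAGGGCCacccta
These lie at chr6:27808640-27808669 and chr6:27824451-27824480, both on the plus strand of GRCh38. The hairpin was found in 9 of 15 clustered histone genes with a 3′ UTR in the annotation and in 1 other gene, together 10 of 10165 3′ UTRs or 0.0984%. All 15 of those histone genes were enriched, with and without the hairpin. A match is a description of the letters and not a measured site.

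HNRNPC, a target of the silencing, was read first. Its mRNA (gene on chromosome 14, 21209136 to 21269494, minus strand, GRCh38) was at 58.4 FPKM in the immunoprecipitate, against 40.1 in si-LY6E-DT, 48.8 in the library labelled si-HNRNPC and 52.2 in si-LY6E-NC, with 67.4 in the RIP input. Its difference of 0.32 was not called. The mRNA level in the library labelled si-HNRNPC lay close to that of si-LY6E-NC and so went against its label, and this library is named by its label throughout. LY6E, a membrane-anchored surface protein and neighbour of LY6E-DT, was depleted, at 0.638 FPKM in the immunoprecipitate, against 12.8 in si-LY6E-DT, 4.24 in the library labelled si-HNRNPC and 20.9 in si-LY6E-NC. The RIP input held 1.69 FPKM of LY6E and was itself low, with a difference of −2.12 from the 3 cell libraries. The immunoprecipitate differed from the input by −0.71, less than 2-fold on the log2(FPKM + 1) scale. LY6E-DT itself was not analysed here.

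The libraries differed in composition, and these values stand beside every result. The FPKM of listed genes summed to 157407 in the immunoprecipitate and to between 195575 and 227394 in the cell libraries, and 208 genes were listed at 0 in the immunoprecipitate against 9 to 51 in the cell libraries. Cytosolic ribosomal protein mRNAs made up 1.20% of the sum in the immunoprecipitate, against 6.29% to 8.55% in the cell libraries. Clustered histone genes made up 1.25%, against 0.0590% to 0.195%. Across the 10731 genes, Pearson's r of log2(FPKM + 1) was 0.479 to 0.518 between the immunoprecipitate and the cell libraries. It was 0.518 between the immunoprecipitate and the RIP input, and 0.863 to 0.970 among the cell libraries. The value of 0.970 was between si-LY6E-DT and si-LY6E-NC. The library labelled si-HNRNPC had 0.864 and 0.863 with these, and 0.919 with the RIP input. The RIP input had 0.838 with si-LY6E-DT and 0.842 with si-LY6E-NC. Genes are not replicates, and these values describe the libraries only. The sequencing depth is unknown, and how RNA was selected for each library (poly(A) selection or removal of ribosomal RNA) is not given in the sources used here. The part of these differences in the results was not tested. Markers of MDA-MB-231 were present: VIM was at 157 FPKM in the immunoprecipitate, against 286 in si-LY6E-DT, 382 in the library labelled si-HNRNPC and 243 in si-LY6E-NC. Of fibroblast and leukocyte markers, 3 fibroblast and 2 leukocyte genes were listed in any file, none of them in all 4 libraries. The highest of these was COL1A1 with 2.104 FPKM in si-LY6E-DT. Some luminal breast markers, given below, were higher in cells, with KRT19 at 9.58 to 85.0 FPKM in the cell libraries.

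The middle of the whole distribution lay below 0, with a median difference of −0.54 over the 10323 genes, and 38.4% of genes were above 0. Against single libraries the median was −0.57 for si-LY6E-DT, −0.51 for the library labelled si-HNRNPC and −0.50 for si-LY6E-NC. Differences below are given as measured and can be read against that shift; centring moves every gene by about the same amount, so a list keeps its place relative to all genes. Of called genes, 31.9% were enriched; when each difference was centred on its median, 2310 genes were enriched and 2053 depleted, so that 52.9% of calls were enrichments, and with quantile normalization that share was 50.4%. No gene called here was called in the opposite direction under any other scaling.

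**Figure D1:**
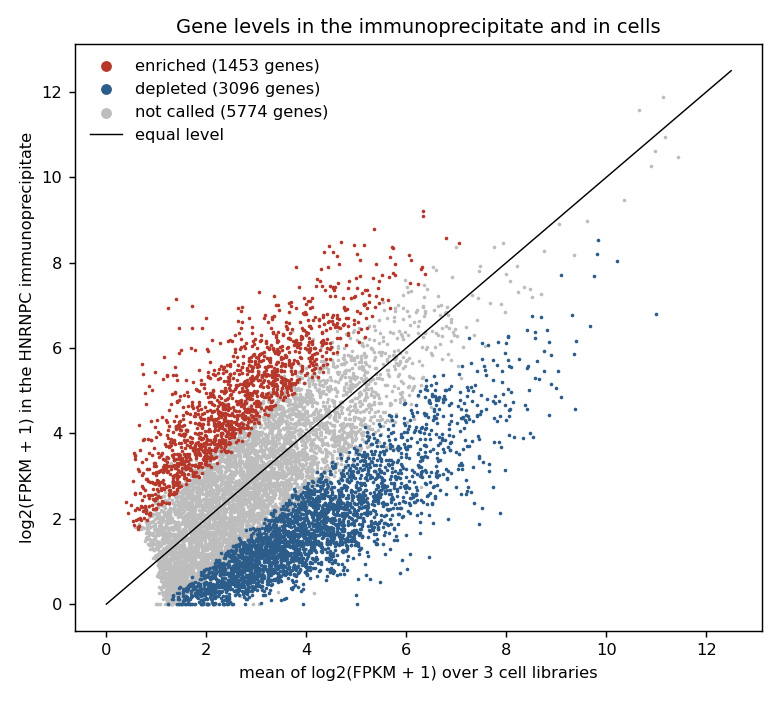
Level of each of 10323 genes in the HNRNPC immunoprecipitate (y axis, log2(FPKM + 1)) against its mean over the 3 cell libraries (x axis, the mean of log2(FPKM + 1)), with 1453 enriched genes in red, 3096 depleted genes in blue and the others in grey. The cloud is broad around the line of equal level, and the genes with the highest cell levels lie mostly below it.

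Enriched genes were mostly low or moderate in cells and high in the immunoprecipitate, which the rule itself favours. Their median level was 25.1 FPKM in the immunoprecipitate, against 4.64 in si-LY6E-DT, 4.69 in the library labelled si-HNRNPC and 4.88 in si-LY6E-NC. Their differences ran from 1.07 to 5.75 with a median of 2.01, and 475 genes were at least 4-fold, 86 at least 8-fold and 11 at least 16-fold above each cell library. The cell libraries gave like values for most of them: for 1200 genes, 82.6%, the 3 differences spanned less than 1 on the log2 scale. Depleted genes showed the reverse, with a median of 1.97 FPKM in the immunoprecipitate, against 13.5 in si-LY6E-DT, 15.4 in the library labelled si-HNRNPC and 13.1 in si-LY6E-NC. Their differences ran from −5.74 to −1.02 with a median of −2.16, and 1239, 288 and 35 genes passed 4-fold, 8-fold and 16-fold. For 2418 of them, 78.1%, the 3 differences spanned less than 1. In both directions the rule favours genes on which the cell libraries agree, and the share over all genes is not given here. Among depleted genes 36 were listed at 0 in the immunoprecipitate, and no fold is given for those.

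Asking for all 3 cell libraries mattered most for the library labelled si-HNRNPC. Another 358 genes were at least 2-fold above both other cell libraries but not above it, compared with 99 that missed only against si-LY6E-DT and 135 that missed only against si-LY6E-NC. On the depleted side the same counts were 614, 110 and 246. Without that library 1811 genes were enriched and 3710 depleted. For 34 genes the immunoprecipitate was at least 2-fold above a cell library and at least 2-fold below another.

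The largest differences were then read among genes averaging at least 5 FPKM over the 4 libraries and sharing no exon with another coding gene. That average includes the immunoprecipitate, so it sets no floor on the cell levels of enriched genes. HIST1H2AI averaged 10.7 FPKM, with 41.0 in the immunoprecipitate and 0.551 to 0.724 in the cell libraries. On the depleted side 4 of the 12 leading genes were for mitochondrial proteins. On the enriched side 8 of 12 were histone genes. HIST1H4B had a difference of 5.27, with 126 FPKM in the immunoprecipitate against 1.76 to 3.32 in the cell libraries. It would stand among the enriched genes but was left out of these 12, having no match in the annotation to check for shared exons. HIST1H3C and HIST1H3B, both encoding histone H3, led the enriched genes. HIST1H3C was at 140.0 FPKM in the immunoprecipitate, against 1.67 in si-LY6E-DT, 1.92 in the library labelled si-HNRNPC and 1.32 in si-LY6E-NC, a difference of 5.75. HIST1H3B was at 122 FPKM in the immunoprecipitate, against 0.874 to 2.42 in the cell libraries. Both were far above every cell library, and the RIP input was as low as the cells, at 1.35 FPKM for HIST1H3C. Clustered histone genes are near-identical copies of each other, so how reads were divided between them is uncertain.

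Of the 4 genes in this set that are not histone genes, OCLN, which encodes occludin of tight junctions, was at 48.2 FPKM in the immunoprecipitate, against 0.175 in si-LY6E-DT, 2.14 in the library labelled si-HNRNPC and 0.168 in si-LY6E-NC. ZNF460, a zinc finger gene, was at 54.1 FPKM in the immunoprecipitate, against 1.41 in si-LY6E-DT, 0.834 in the library labelled si-HNRNPC and 1.47 in si-LY6E-NC. TMEM170B, which encodes a small membrane protein, was at 42.5 FPKM in the immunoprecipitate, against 0.665 in si-LY6E-DT, 1.10 in the library labelled si-HNRNPC and 1.16 in si-LY6E-NC. Each of the 3 was at least 8-fold above every cell library, and the RIP input held 0.183, 0.259 and 2.43 FPKM of them. SLC16A6, a member of the monocarboxylate transporter family, was at 87.9 FPKM in the immunoprecipitate, against 0.551 in si-LY6E-DT, 10.3 in the library labelled si-HNRNPC and 0.143 in si-LY6E-NC. For SLC16A6 the cell libraries differed among themselves, the RIP input was also raised at 16.1 FPKM, and the difference of 5.03 covers 2.97 against the library labelled si-HNRNPC and 6.28 against si-LY6E-NC.

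On the depleted side POLR2L, a small subunit shared by the nuclear RNA polymerases, was at 2.70 FPKM in the immunoprecipitate, against 157 in si-LY6E-DT, 166 in the library labelled si-HNRNPC and 202 in si-LY6E-NC, a difference of −5.56. SFN, which encodes stratifin, an adaptor protein of epithelial cells, was at 1.16 FPKM in the immunoprecipitate, against 75.3 in si-LY6E-DT, 106 in the library labelled si-HNRNPC and 81.0 in si-LY6E-NC. CHCHD2, a mitochondrial protein, was at 7.84 FPKM in the immunoprecipitate, against 192 in si-LY6E-DT, 392 in the library labelled si-HNRNPC and 213 in si-LY6E-NC. These mRNAs were low in the immunoprecipitate alone, since the RIP input held 88.3, 51.1 and 278 FPKM. The mitochondrial membrane protein ROMO1, the mitochondrial ribosomal proteins MRPL54 and MRPS26, the ribonuclease P subunit POP7, the proteasome ubiquitin receptor ADRM1, the centrosomal protein SSNA1 and the nucleolar protein RRP9 had differences between −5.27 and −4.78. KRT7 and SAA1 differed between the cell libraries as well. The keratin KRT7 was at 0.780 FPKM in the immunoprecipitate, against 140.2 in si-LY6E-DT, 13.7 in the library labelled si-HNRNPC and 129 in si-LY6E-NC, and the acute-phase protein SAA1 was at 4.18 FPKM in the immunoprecipitate, against 292 in si-LY6E-DT, 33.8 in the library labelled si-HNRNPC and 419.5 in si-LY6E-NC. Both were lowest in the immunoprecipitate and lower in the library labelled si-HNRNPC than in the other cell libraries; in bulk libraries fewer cells with an mRNA and less of it per cell cannot be told apart.

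**Figure D2:**
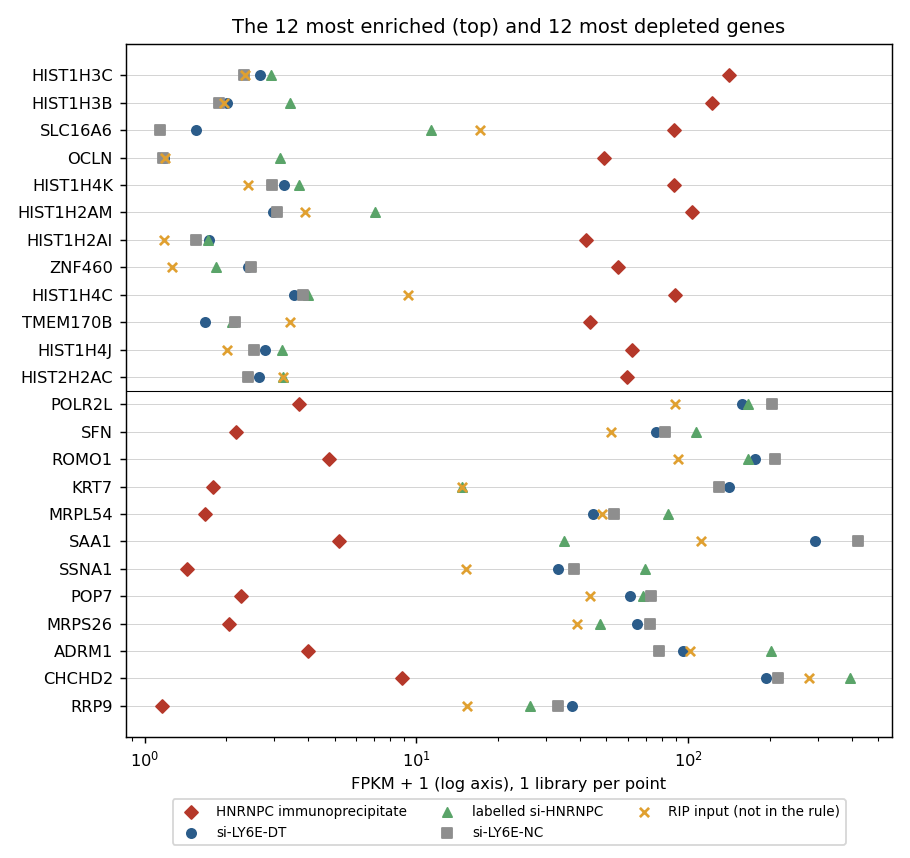
Level (FPKM + 1, log axis) of the 12 most enriched genes that could be checked for shared exons, above the line, and the 12 most depleted genes, below it, in each library, 1 point per library. The red diamonds of the immunoprecipitate stand apart from all cell libraries in every row, while the RIP input (crosses), which had no part in the choice, lies among or near the cell libraries in most rows.

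The call rests on the weakest of the 3 differences, so genes near the threshold can be alike in that value and differ in the others. RUFY2 was just inside the enriched set, at 11.9 FPKM in the immunoprecipitate against 2.45 to 5.47 in the cell libraries, and FOXO3 just outside it, at 23.3 against 6.16 to 11.2. On the depleted side CASP4 was just inside, at 2.35 FPKM in the immunoprecipitate against 5.69 to 9.30, and TGFBI just outside, at 1.05 against 3.10 to 24.9, because of the library labelled si-HNRNPC.

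Called genes were then sorted by function. The 30 gene lists were drawn up by function and with earlier results of these data known, and their counts are descriptions that can be read against the 14.1% enriched, the 30% depleted and the median of −0.54 of all genes. A list called split or mixed below can lie near these shares. Counts over all 10323 genes shift with the setting, and list counts under a setting can be read against them. With centring 2310 were enriched and 2053 depleted, and without the library labelled si-HNRNPC 1811 and 3710. A pseudocount of 5 gave 1010 and 1661. No hnRNP gene was enriched. The hnRNP proteins are the family of nuclear RNA-binding proteins to which HNRNPC belongs. Of 25 members 10 were depleted, or 6 with centring, and their median difference was −0.92. RALY, the closest relative of HNRNPC, was at 1.79 FPKM in the immunoprecipitate, against 20.9 in si-LY6E-DT, 25.3 in the library labelled si-HNRNPC and 15.97 in si-LY6E-NC. HNRNPA2B1 was at 24.3 FPKM in the immunoprecipitate against 85.0 to 145 in the cell libraries. HNRNPH2 was lower still relative to cells, with a difference of −3.47, but it shares exons with another gene and is uncertain.

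Genes for other proteins that bind runs of U were mixed. Of 16, 2 were enriched and 3 depleted, with a median of 0.41; with centring 5 were enriched and 3 depleted. CELF2, a regulator of splicing and mRNA stability, was at 37.3 FPKM in the immunoprecipitate, against 1.15 in si-LY6E-DT, 3.12 in the library labelled si-HNRNPC and 1.10 in si-LY6E-NC. PTBP3, a relative of the polypyrimidine tract binding protein, was at 70.7 FPKM in the immunoprecipitate against 5.14 to 11.5 in the cell libraries. PUF60, a splicing factor for U-rich tracts, and SSB, the La protein that binds the U-ended transcripts of RNA polymerase III, were on the depleted side with differences of −3.13 and −2.99. Among SR proteins and core spliceosome genes 1 of 36 was enriched and 18 were depleted. That 1 gene was SRPK1, a kinase of SR proteins, at 133 FPKM in the immunoprecipitate, against 38.4 in si-LY6E-DT, 44.2 in the library labelled si-HNRNPC and 45.9 in si-LY6E-NC. The most depleted were SNRPB, SNRPD2 and PRPF31, components of the small nuclear ribonucleoproteins, with differences of −4.04, −3.86 and −3.67.

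Genes of the ribosome and of mitochondria were mostly depleted where they are encoded in the nucleus. Of 81 cytosolic ribosomal protein genes 76 were depleted and none enriched, with a median difference of −2.80. RPS21 was at 14.2 FPKM in the immunoprecipitate, against 397 in si-LY6E-DT, 277 in the library labelled si-HNRNPC and 464 in si-LY6E-NC. The 5 members that were not called were RPL23 and the paralogs RPL7L1, RPL22L1, RPL39L and RPS27L, with differences between −1.11 and 0.05. RPL36 and RPS10 had the lowest differences but share exons with other genes. Under the pseudocounts, scalings and choices of cell libraries tried, 71 to 76 of the 81 were depleted. Of 77 mitochondrial ribosomal protein genes 57 were depleted and 4 enriched, with a median of −2.31. The 4 enriched ones were MRPL42, MRPS30, MRPL19 and MRPL44, and without the library labelled si-HNRNPC 7 were enriched. MRPL42, whose 3′ UTR holds 80 runs of U in the transcript used, was at 15.5 FPKM in the immunoprecipitate, against 1.64 in si-LY6E-DT, 1.53 in the library labelled si-HNRNPC and 1.41 in si-LY6E-NC, while MRPL54 with none was at 0.669 FPKM in the immunoprecipitate, against 43.8 in si-LY6E-DT, 83.4 in the library labelled si-HNRNPC and 52.2 in si-LY6E-NC.

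Of 76 genes for nuclear-encoded subunits of the respiratory chain 69 were depleted and none was enriched, with a median of −2.56. NDUFS5, a subunit of complex I, was at 13.9 FPKM in the immunoprecipitate, against 304 in si-LY6E-DT, 271 in the library labelled si-HNRNPC and 411 in si-LY6E-NC. NDUFB7 and ATP5I had differences of −4.20 and −4.17. Of the 13 mRNAs encoded by the mitochondrial genome, 3 were depleted and none was enriched, and the median was −0.87, or 0.03 after quantile normalization. MT-CO3 was the most abundant mRNA of the immunoprecipitate, at 3766 FPKM, against 1896 in si-LY6E-DT, 3641 in the library labelled si-HNRNPC and 1629 in si-LY6E-NC; it shares exons with a neighbouring gene in the annotation. MT-ND1 was depleted, at 261 FPKM in the immunoprecipitate against 1029 to 1459.8 in the cell libraries. In the RIP input these mRNAs were higher than in any cell library for 12 of the 13 by at least 2-fold, so the input and the cells give different accounts of them.

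Lists for protein synthesis, protein breakdown, energy metabolism and the cytoskeleton were also mostly depleted. Of 38 translation factors 21 were depleted and 2 enriched, of 41 proteasome genes 32 were depleted and 1 enriched, and of 19 glycolysis genes 17 were depleted and none enriched. Of 33 tubulin and actin cytoskeleton genes 21 were depleted, or 12 with centring, and none enriched. The median differences were −1.84 for translation factors, −2.32 for the proteasome, −2.33 for glycolysis and −2.24 for the cytoskeleton. TPI1, the triose phosphate isomerase, was at 11.9 FPKM in the immunoprecipitate, against 192 in si-LY6E-DT, 326 in the library labelled si-HNRNPC and 209 in si-LY6E-NC. TMSB10, an actin-binding peptide and an abundant mRNA of these cells, was at 110.0 FPKM in the immunoprecipitate against 1254 to 2641 in the cell libraries. Within the translation list the exceptions were EIF5, the activator of the initiator GTPase, and EIF4E, the cap-binding protein. EIF5 was at 91.2 FPKM in the immunoprecipitate, against 17.9 in si-LY6E-DT, 11.5 in the library labelled si-HNRNPC and 19.5 in si-LY6E-NC, and EIF4E at 10.97 FPKM in the immunoprecipitate against 3.42 to 4.87. PSMD5, an assembly factor of the proteasome, was the enriched member of that list, at 56.9 FPKM against 12.4 to 21.3.

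Cell cycle lists leaned to depletion. Of 30 G2/M genes 13 were depleted and none enriched, and of 31 S phase genes 20 were depleted and 1 enriched. CDC20, an activator of the anaphase-promoting complex, was at 6.71 FPKM in the immunoprecipitate, against 128 in si-LY6E-DT, 73.5 in the library labelled si-HNRNPC and 151 in si-LY6E-NC. CENPF, a kinetochore protein, was at 3.47 FPKM in the immunoprecipitate, against 68.3 in si-LY6E-DT, 9.61 in the library labelled si-HNRNPC and 71.1 in si-LY6E-NC. The proliferation gene KIF4A showed the same order, with 2.005 FPKM in the immunoprecipitate and 47.0 in si-LY6E-DT, 8.23 in the library labelled si-HNRNPC and 51.8 in si-LY6E-NC. MCM7, part of the replicative helicase, was at 4.66 FPKM in the immunoprecipitate against 62.3 to 74.5 in the cell libraries. The enriched S phase gene was GINS1, at 28.6 FPKM against 9.39 to 12.8. The median of the G2/M list was −1.77 against si-LY6E-DT, −0.63 against the library labelled si-HNRNPC and −1.86 against si-LY6E-NC, and without the library labelled si-HNRNPC 20 of these genes were depleted.

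Histone genes divided by type. Of 26 genes of the histone clusters 24 were enriched and none depleted, with a median of 3.93 and a lowest difference of 0.38. Of 9 histone genes outside the clusters, many of them replacement histones, none was enriched and 3 were depleted, with a median of −1.15. H2AFZ, a replacement histone, was at 12.3 FPKM in the immunoprecipitate, against 75.4 in si-LY6E-DT, 149 in the library labelled si-HNRNPC and 85.8 in si-LY6E-NC. The clustered gene HIST1H4C was at 88.2 FPKM in the immunoprecipitate, against 2.56 in si-LY6E-DT, 2.997 in the library labelled si-HNRNPC and 2.83 in si-LY6E-NC. The clustered genes that were not enriched were HIST1H1C and HIST1H2BK, the most abundant clustered histone mRNAs of the cell libraries. HIST1H2BK was at 98.6 FPKM in the immunoprecipitate, against 35.7 in si-LY6E-DT, 276 in the library labelled si-HNRNPC and 43.0 in si-LY6E-NC. Between 24 and 25 of the 26 were enriched under every pseudocount, scaling and choice of cell libraries tried, and the share of the library taken by these genes is given above. Their copies are near-identical, so the count of separate genes is uncertain.

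Zinc finger genes of the ZNF series, mostly transcription factors, were split. Their enriched share was near the 14.1% of all genes and their depleted share below the 30%. Of 331, 56 were enriched and 39 depleted, with a median of −0.01, or 0.53 with centring and −0.17 without the library labelled si-HNRNPC; centring gave 91 enriched and 17 depleted, and leaving out that library gave 61 depleted. ZNF460 is given above. ZNF593 and ZNF428, with no run of U in the 3′ UTR, had differences of −4.41 and −3.93. Of 48 chromatin regulators 2 were enriched, TET2 and ARID2, and 10 depleted, with a median of −0.45. With centring 5 were enriched and 4 depleted and the median was 0.09, and with a pseudocount of 5 none was enriched and 4 were depleted. TET2, a DNA demethylating enzyme, was at 3.04 FPKM in the immunoprecipitate against 0.597 to 0.607 in the cell libraries. SMARCA4, an ATPase of chromatin remodelling, was at 3.09 against 15.6 to 24.0.

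Genes of sterol metabolism were split, with some of the highest levels of the immunoprecipitate among them. Their depleted share was near the 30% of all genes and their enriched share somewhat above the 14.1%. Of 25 genes of the cholesterol synthesis list 5 were enriched and 7 depleted, with a median of 0.10 that fell below 0 without si-LY6E-DT, at −0.12, and without si-LY6E-NC, at −0.12; without the library labelled si-HNRNPC 9 were enriched. MSMO1, a sterol methyl oxidase, was at 333 FPKM in the immunoprecipitate, against 9.01 in si-LY6E-DT, 60.8 in the library labelled si-HNRNPC and 15.8 in si-LY6E-NC. INSIG1, which holds the sterol sensor in the endoplasmic reticulum, was at 303 FPKM in the immunoprecipitate, against 15.1 in si-LY6E-DT, 48.0 in the library labelled si-HNRNPC and 9.73 in si-LY6E-NC. STARD4, a cytosolic sterol carrier, was at 103 FPKM in the immunoprecipitate, against 3.25 in si-LY6E-DT, 12.2 in the library labelled si-HNRNPC and 5.84 in si-LY6E-NC. Each was above every cell library, and for all of these the library labelled si-HNRNPC was the highest of the cell libraries. The RIP input held 35.5, 57.5 and 13.6 FPKM. CYP51A1, the lanosterol demethylase, and SC5D were the other enriched members, and CYP51A1 shares exons with another gene.

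Genes of the endoplasmic reticulum and of vesicle coats split within each list. Of 20 chaperone genes of the endoplasmic reticulum 3 were enriched and 8 depleted, or 4 depleted with centring. SEL1L, an adaptor of protein degradation there, was at 72.1 FPKM in the immunoprecipitate, against 11.1 in si-LY6E-DT, 6.84 in the library labelled si-HNRNPC and 11.8 in si-LY6E-NC, and the co-chaperones DNAJC3 and DNAJB9 had differences of 2.74 and 2.21. SDF2L1 and ERP29, both soluble proteins of the lumen, had differences of −3.35 and −3.07. Of 34 genes of membrane trafficking 7 were enriched and 14 depleted, or 7 depleted with centring. SSR1, a subunit of the translocon-associated complex, was at 82.3 FPKM in the immunoprecipitate, against 9.90 in si-LY6E-DT, 7.31 in the library labelled si-HNRNPC and 12.7 in si-LY6E-NC. CLTA, a clathrin light chain, was at 5.78 FPKM in the immunoprecipitate against 81.5 to 111 in the cell libraries. Another 4 of the enriched members, SAR1A, SAR1B, SEC23A and SEC24A, belong to the COPII coat, with differences from 1.83 to 2.23.

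Adhesion genes were split, while matrix genes were depleted or not called. Of 21 integrin and adhesion genes 4 were enriched, ITGA2, DAG1, ITGA6 and ITGB3, and 8 depleted, with a median of 0.22. ITGA2, a collagen receptor subunit, was at 46.9 FPKM in the immunoprecipitate, against 7.04 in si-LY6E-DT, 7.57 in the library labelled si-HNRNPC and 6.82 in si-LY6E-NC, but only at 0.928 in the RIP input. ITGA3, a laminin receptor subunit, was at 8.40 FPKM in the immunoprecipitate, against 119.8 in si-LY6E-DT, 37.04 in the library labelled si-HNRNPC and 96.3 in si-LY6E-NC. None of 31 matrix and protease genes was enriched and 12 were depleted, or 19 without the library labelled si-HNRNPC. With centring 3 were enriched and 9 depleted. The median of this list was −2.41 against si-LY6E-DT and −2.16 against si-LY6E-NC. Against the library labelled si-HNRNPC it was −0.57, near the −0.51 of all genes. COL4A2, a collagen chain of basement membranes, was at 2.68 FPKM in the immunoprecipitate, against 78.8 in si-LY6E-DT, 18.8 in the library labelled si-HNRNPC and 74.8 in si-LY6E-NC. COL6A2, a chain of microfibrillar collagen, was at 0.949 FPKM in the immunoprecipitate against 7.98 to 21.4 in the cell libraries.

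Lists of signalling and RNA modification were examined as well. Of 21 immediate early genes 3 were enriched and 4 depleted, with a median of 0.20 that became −0.06 without si-LY6E-NC. DUSP4 and DUSP5, phosphatases of the ERK kinases, were at 136 and 175 FPKM in the immunoprecipitate. In the cell libraries DUSP4 was at 8.28 in si-LY6E-DT, 66.2 in the library labelled si-HNRNPC and 6.56 in si-LY6E-NC. The RIP input held 81.2 FPKM of DUSP4, within 2-fold of the immunoprecipitate. FOSL1, a subunit of AP-1, was depleted with a difference of −2.70. Of 18 interferon-stimulated genes 9 were depleted and none enriched, but with centring 3 were enriched and 1 depleted, and with a pseudocount of 5 only 1 was depleted. ISG15, a ubiquitin-like protein, was at 5.66 FPKM in the immunoprecipitate, against 36.0 in si-LY6E-DT, 135 in the library labelled si-HNRNPC and 39.3 in si-LY6E-NC. Of 18 genes for m6A writers, readers and erasers 2 were enriched, YTHDF3 and RBM15, and 1 was depleted, METTL3; 7 were enriched with centring and 5 without the library labelled si-HNRNPC. YTHDF3, a cytoplasmic m6A reader, was at 19.1 FPKM in the immunoprecipitate against 1.89 to 7.93 in the cell libraries. METTL3, the catalytic subunit of the m6A writer, was at 2.16 against 5.75 to 7.31.

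Nuclear pore genes were split, with 5 of 28 enriched and 7 depleted and a median of −0.42 that became 0.11 with centring. These values lie near the 14.1%, the 30% and the median of −0.54 of all genes. NUP58 was at 55.6 FPKM in the immunoprecipitate against 8.63 to 14.9 in the cell libraries, and TPR, of the nuclear basket, at 3.83 against 10.8 to 35.3. Of 21 HECT ubiquitin ligases 2 were enriched and 2 depleted, with a median of 0.66; 7 were enriched with centring, and 5 were depleted without the library labelled si-HNRNPC. SMURF2 was at 112 FPKM against 17.0 to 46.5, and UBE3C at 45.5 against 15.4 to 19.5. Marker genes of the cell type were called as well. Of 7 MDA-MB-231 markers CAV1 was enriched, at 228 FPKM in the immunoprecipitate against 43.4 to 106, and LGALS1 and S100A4 were depleted, so that their summed level was 843 FPKM in the immunoprecipitate and 978 to 1067 FPKM in the cell libraries. Of 5 luminal breast markers 4 were depleted, with a summed level of 8.82 FPKM in the immunoprecipitate and 73.0 to 176 FPKM in the cell libraries; the estrogen and progesterone receptors, which define luminal cells, were not analysed here.

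**Figure D3:**
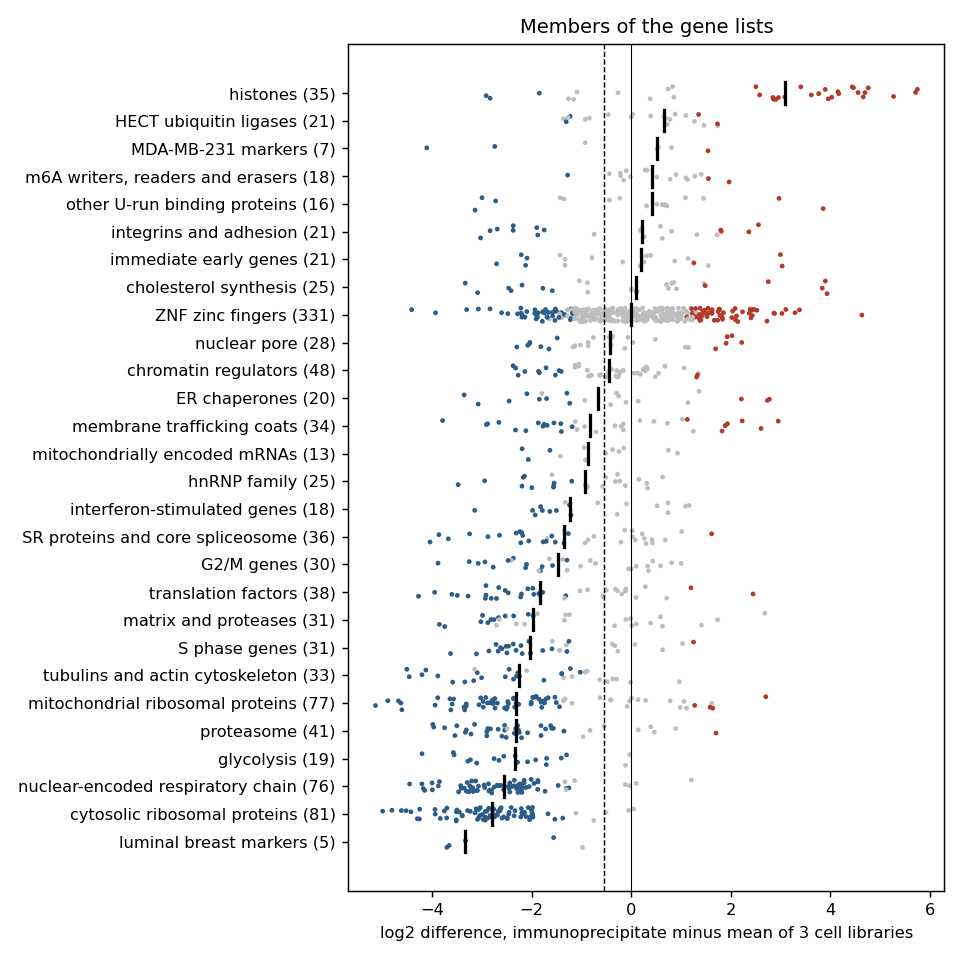
Difference of every member of each gene list (x axis, log2, immunoprecipitate minus the mean of the 3 cell libraries), with the number compared in brackets, members called enriched in red, depleted in blue and others in grey. Black ticks are list medians and the dashed line is the median of all 10323 genes, −0.54; histone genes lie farthest right and ribosomal, respiratory chain and luminal marker genes farthest left.

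The 3′ UTR was examined next, since runs of U are the known binding sequence of HNRNPC and had no part in the choice of genes. Of the 10323 genes, 99.7% matched GENCODE 29 by their identifier, and 10019 had a 3′ UTR of at least 50 bases in the coding transcript used. Enriched genes had a median of 17 runs of at least 5 U in the 3′ UTR, depleted genes 1 and all genes 4. The longest run had a median of 10 bases in enriched genes, 5 in depleted genes and 7 in all genes. Enriched genes also had longer 3′ UTRs, with a median of 2982.5 bases against 450 bases in depleted genes, and a lower GC content of the transcript, with 40.6% against 57.1%. Coding sequences differed less in length, with medians of 1386 bases in enriched and 1182 bases in depleted genes. Their GC content differed as well, with medians of 45.2% in enriched and 57.9% in depleted genes.

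Across the 10019 genes the number of U runs had a Spearman rho of 0.70 with the difference, and of 0.67 with the difference from si-LY6E-DT alone, 0.71 from the library labelled si-HNRNPC and 0.65 from si-LY6E-NC. The same count had a rho of −0.03 with the difference of the RIP input from the 3 cell libraries. For other features rho with the immunoprecipitate's difference was −0.60 for GC content, 0.55 for 3′ UTR length, 0.46 for transcript length, 0.57 for runs of 5 A, 0.02 for runs of 5 C and 0.08 for runs of 5 G. Runs of U in the coding sequence had a rho of 0.35, GC content of the coding sequence −0.44 and U runs per kilobase of 3′ UTR 0.49. These are correlations across genes, which are not replicates, and the features share base composition and length.

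By number of runs the difference rose from class to class. The 1869 genes with no run had a median difference of −1.93, and 1.44% of them were enriched and 67.3% depleted. With 4 to 6 runs the median was −0.35, with 7 to 10 runs it was 0.23, and with 11 to 15 runs it was 0.76. The 551 genes with at least 26 runs had a median of 1.71, and 63.2% were enriched and 1.09% depleted. In the RIP input the medians of the same classes stayed between −0.21 and −0.09. Runs of A gave a like order: 2.24% of genes without a run of 5 A were enriched, and 53.7% of the 227 genes with at least 26.

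**Figure D4:**
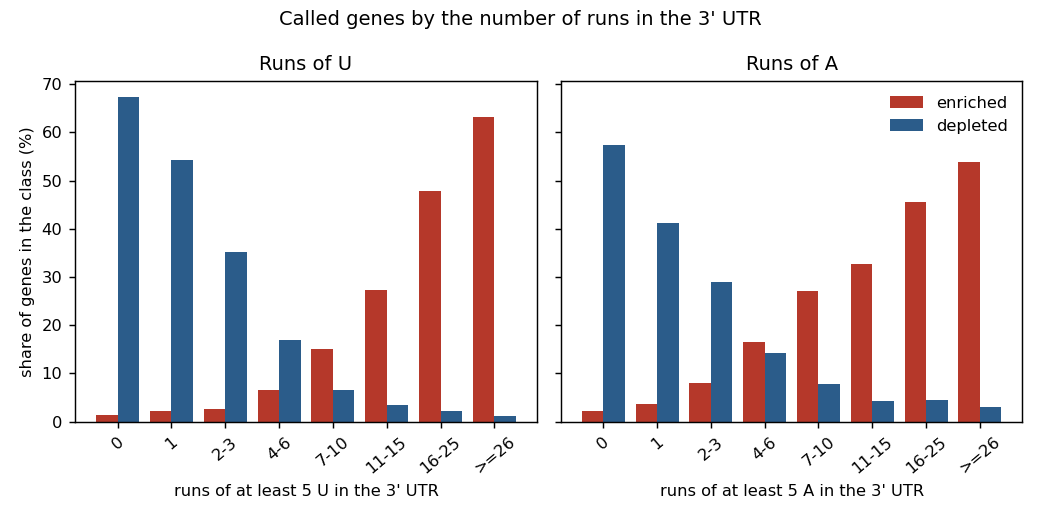
Share of genes called enriched (red) and depleted (blue), in percent, by the number of runs of at least 5 U (left) or 5 A (right) in the 3′ UTR. Enriched genes go from 1.44% without a run of U to 63.2% with at least 26, depleted genes from 67.3% to 1.09%, and runs of A give a similar but less steep pattern.

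Longer 3′ UTRs hold more runs, so the density of runs was compared among genes of like 3′ UTR length. Genes were put into 5 classes of about equal size by 3′ UTR length, and each class was divided into low, middle and high density at the same ranks, with genes of equal density kept together. In the class of 2865 bases or more, genes of low density had a median difference of −0.08 and 9.90% were enriched, those of middle density 1.05 and 41.2%, and those of high density 1.70 and 62.4%. In the class of 822 to 1558 bases the medians were −1.39 for low, −0.61 for middle and 0.35 for high density. In the shortest class, 50 to 373 bases, they were −1.99, −1.52 and −1.31, and the low density genes there were the 1119 without a run. The rho of density with the difference was 0.22 in the shortest class and 0.47 to 0.61 in the others.

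**Figure D5:**
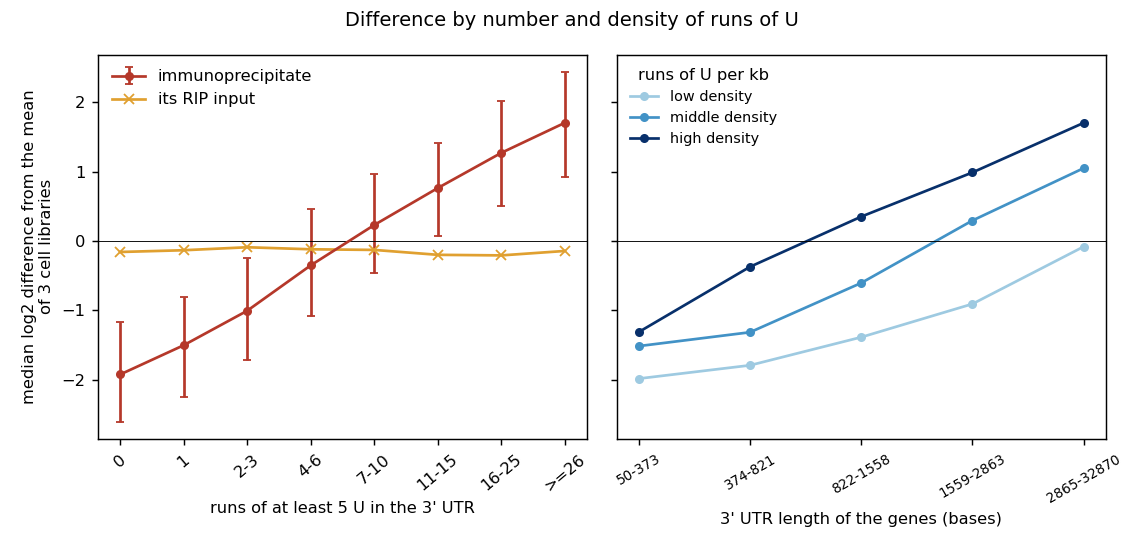
Median log2 difference from the 3 cell libraries by the number of U runs (left; bars on the immunoprecipitate are the quartiles over genes, and the crosses are the RIP input against the same libraries) and by 3′ UTR length within low, middle and high density of runs (right). The immunoprecipitate goes from −1.93 to 1.71 across the classes at left while the input stays between −0.21 and −0.09, and at right the 3 lines stay in the order of density at every length.

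Some genes went against this order. Of the 1431 enriched genes with a 3′ UTR of at least 50 bases, 27 had no run of U there in the transcript used, 4 of them clustered histone genes. Enriched genes with a shorter 3′ UTR or none in the annotation were not counted, among them HIST1H3C and HIST1H3B. KLHL11, an adaptor of a ubiquitin ligase, was at 42.4 FPKM in the immunoprecipitate, against 2.99 in si-LY6E-DT, 3.14 in the library labelled si-HNRNPC and 3.15 in si-LY6E-NC. GSK3B, a kinase of Wnt and glycogen metabolism, was at 54.0 FPKM in the immunoprecipitate against 5.72 to 9.96, and TAPBP, which loads peptides on MHC class I, at 169 against 22.2 to 37.1. In the transcripts used these have short 3′ UTRs, of 195, 102 and 202 bases, and the runs in their other isoforms are not given here. Of 1454 genes with at least 16 runs, 26 were depleted. RNASEH2A, a subunit of ribonuclease H2, with 19 runs in the transcript used, was at 1.68 FPKM in the immunoprecipitate, against 39.9 in si-LY6E-DT, 45.2 in the library labelled si-HNRNPC and 40.7 in si-LY6E-NC. DYNC1H1, the dynein heavy chain, with 28 runs in the transcript used, was at 21.1 FPKM in the immunoprecipitate against 68.3 to 97.6 in the cell libraries. The RIP input held 35.3 FPKM of RNASEH2A but only 19.8 FPKM of DYNC1H1, so DYNC1H1 was not lower in the immunoprecipitate than in its input. The genes of this paragraph were chosen after their values were seen.

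The RIP input, which the rule did not use, was set beside the calls. Against the same 3 cell libraries the input was at least 2-fold above each for 132 genes, 1.28%, and at least 2-fold below each for 369 genes, 3.57%. Over the 1453 enriched genes the median difference from the input was 2.04, and that of the input from the 3 cell libraries was 0.05. Over the 3096 depleted genes these medians were −2.002 and −0.22. The immunoprecipitate was at least 2-fold above the input for 1327 of the enriched genes and at least 2-fold below it for 2731 of the depleted genes, where 23% and 36.1% of all genes passed these limits. Both comparisons share the immunoprecipitate library, so the counts are no separate evidence. The input itself was called in the same direction in 31 enriched and 120 depleted genes, and in the opposite direction in 62 and 24. CAV1 is an example of a difference that is larger against the input, which held 8.12 FPKM, and DUSP5 of a smaller one, with 91.0 FPKM in the input against 175 in the immunoprecipitate.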

How the data were processed

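The values analysed are FPKM per gene as deposited by the authors, 1 table for each of 5 libraries, per the file headers. Tools named in the submitters' processing notes are StringTie 1.3.3, HISAT2 2.1.0, FastQC 0.11.7 and cutadapt 1.17, and the genome named is GRCh37; what each was used for is not given in the sources used here. Since FPKM is relative to the library total, a few very abundant mRNAs lower the values of all others, and reads of overlapping genes may be divided between them by the estimate. At most 9 genes lay under 0.3 FPKM in both of a pair of libraries, too few to look for steps of whole reads, so depth is unknown and no interval or count test is given.

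Genes listed in all 4 libraries with a mean of at least 1 FPKM were compared as log2((FPKM + 1)/(FPKM + 1)). No test is possible with 1 library per group. Named genes were HNRNPC and LY6E, the 12 largest differences in each direction with a mean of at least 5 FPKM and no exon shared with another coding gene, up to 3 called genes per list, and the 2 called and 2 uncalled genes nearest the threshold in each direction, of which the text gives 1 each; other members were named after their values were seen, and a gene that the rule takes is not reported here. The genes and lists were chosen with earlier results of these data known. Transcript features came from 1 coding transcript per gene in GENCODE 29 on GRCh38 (complete, principal and longest where several); no coordinates were converted. Genes sharing exons on the same strand are called uncertain.

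Alternatives were pseudocounts of 0.1 and 5, no filter and a filter of 5 FPKM, centring, quantile normalization, rescaling without mitochondrially encoded, ribosomal protein and the 20 highest genes, folds of 1.5 and 4, the mean of the 3 cell libraries alone, leaving out each cell library, and leaving out genes that share exons. Runs of A, C and G, 5 classes of 3′ UTR length, the RIP input in place of the immunoprecipitate, and families by symbol were added after seeing the data. The calling code was checked on data built with known changes. Tables were computed with pandas 2.3.3 and numpy 2.4.6 in Python 3.11.15, and figures drawn with matplotlib 3.10.9.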

Additional observations from a re-analysis of the deposited data

How the results depend on the processing

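The counts of 1453 enriched and 3096 depleted genes depended on the scaling, the fold asked and, for depleted genes, the pseudocount. Centring on the median gave 2310 enriched and 2053 depleted genes, a fold of 4 gave 475 and 1239, and a pseudocount of 5 gave 1661 depleted genes; centring by its construction moves genes from one side to the other, and a higher fold or pseudocount calls fewer. Under the other alternatives both counts stayed within 1.5 times, and no called gene was called in the opposite direction under any of them. Leaving out a cell library gave 1552 to 1811 enriched and 3206 to 3710 depleted genes, the highest without the library labelled si-HNRNPC. The rho of U runs with the difference stayed between 0.66 and 0.75, and was 0.72 with the longest 3′ UTR of each gene. Recomputed list medians moved by more than 1.5-fold in 8 cases and by less in 216, and differences of named genes in 123 cases and 717, with no called gene changing sign. The share of enriched genes that were also above the input was 86.3% to 93.0%, and of depleted genes below it 80.1% to 91.5%. No paired analysis was possible because each group has 1 library. With 1 library per group and unknown depth, no counting or biological error can be given, which bears most on genes near 1 FPKM, and an FPKM shows only relative amounts within a library.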

Other observations

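Gene families that no list held were chosen after their values were seen, and several held both enriched and depleted members. Their counts can be read against the 14.1% enriched and the 30% depleted of all genes. Several depleted counts, such as those of RAB and SLC genes, lie below that share. Counts under other settings can be read against those given for all genes with the lists. TMED genes encode cargo receptors of the early secretory pathway, and of 9 compared 5 were enriched and 3 depleted. TMED10 was at 341 FPKM in the immunoprecipitate, against 30.5 in si-LY6E-DT, 35.2 in the library labelled si-HNRNPC and 37.9 in si-LY6E-NC, and its 3′ UTR holds 22 runs of U. TMED9 was at 9.93 FPKM in the immunoprecipitate, against 76.1 in si-LY6E-DT, 107 in the library labelled si-HNRNPC and 74.8 in si-LY6E-NC, and its 3′ UTR holds none; TMED1 and TMED3, also without a run, were the other depleted members. TMED7, TMED2, TMED8 and TMED4 were enriched with 11 to 21 runs, and TMED7 shares exons with another gene. Among 41 RAB genes, small GTPases of vesicle transport, 12 were enriched and 8 depleted. RAB8B with 27 runs was at 124 FPKM in the immunoprecipitate, against 9.05 in si-LY6E-DT, 1.38 in the library labelled si-HNRNPC and 10.8 in si-LY6E-NC, while RAB1B with 1 run was at 7.97 FPKM in the immunoprecipitate, against 116 in si-LY6E-DT, 188 in the library labelled si-HNRNPC and 117 in si-LY6E-NC.

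Subunits of the CCR4-NOT complex, which shortens poly(A) tails, included 4 enriched genes of 11. These were CNOT6, CNOT6L, CNOT7 and CNOT8, which encode its deadenylases. CNOT6 was at 84.2 FPKM in the immunoprecipitate, against 13.9 in si-LY6E-DT, 12.02 in the library labelled si-HNRNPC and 18.2 in si-LY6E-NC, and CNOT7 at 36.3 FPKM in the immunoprecipitate against 3.88 to 4.41 in the cell libraries. CNOT3, a scaffold subunit, was depleted at 1.77 FPKM against 7.44 to 9.08. Among 10 genes of the MTMR family 3 were enriched and none depleted. Of 18 ZDHHC genes, enzymes that attach palmitate to proteins, 7 were enriched and 2 depleted, and of 20 KLHL genes, adaptors of ubiquitin ligases, 7 were enriched and 2 depleted. KLHL24 with 43 runs was at 59.97 FPKM in the immunoprecipitate, against 2.51 in si-LY6E-DT, 5.29 in the library labelled si-HNRNPC and 2.16 in si-LY6E-NC. Of 161 SLC transporter genes 52 were enriched and 39 depleted, or 66 and 22 with centring and 39 and 19 with a pseudocount of 5. SLC7A11, the cystine transporter, was at 127 FPKM in the immunoprecipitate, against 10.5 in si-LY6E-DT, 10.2 in the library labelled si-HNRNPC and 8.93 in si-LY6E-NC, and SLC25A1, the mitochondrial citrate carrier, at 1.06 FPKM in the immunoprecipitate, against 24.1 in si-LY6E-DT, 41.1 in the library labelled si-HNRNPC and 20.001 in si-LY6E-NC. Of 34 DDX RNA helicase genes 17 were depleted and none enriched, and of 16 TIMM genes of mitochondrial protein import 11 were depleted and 1, TIMM10B, enriched. The sign of each family's median was the same under every pseudocount, scaling and choice of cell libraries tried, from 0.04 to 0.72 for SLC genes as the nearest to 0.

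Some abundant mRNAs of the immunoprecipitate outside the lists are given as values. CLIC4, a chloride channel family protein, was at 588 FPKM in the immunoprecipitate, against 88.3 in si-LY6E-DT, 54.9 in the library labelled si-HNRNPC and 103 in si-LY6E-NC. SCD, the stearoyl-CoA desaturase, was at 445 FPKM in the immunoprecipitate, against 18.7 in si-LY6E-DT, 126 in the library labelled si-HNRNPC and 26.8 in si-LY6E-NC, and 162 in the RIP input. HIF1A, the oxygen-regulated transcription factor, was at 330.0 FPKM in the immunoprecipitate, against 58.8 in si-LY6E-DT, 37.3 in the library labelled si-HNRNPC and 62.4 in si-LY6E-NC. SRGN, the proteoglycan serglycin, was at 543 FPKM in the immunoprecipitate, against 43.0 in si-LY6E-DT, 238 in the library labelled si-HNRNPC and 48.6 in si-LY6E-NC, with 400.3 in the RIP input, within 2-fold of the immunoprecipitate. FTL, ferritin light chain, was at 1236 FPKM in the immunoprecipitate, against 1306 in si-LY6E-DT, 4262 in the library labelled si-HNRNPC and 1219 in si-LY6E-NC.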
